A study of Mus musculus with 12 samples.

Results

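Messenger RNA levels of 8 receptor genes that hold leukocytes in the bone marrow (BM), release them from it or guide them into tissue were followed through basophil maturation in mice. The genes were Cxcr4, Cxcr2, Ccr1, Ccr2, Ccr3, S1pr1, S1pr4 and Selplg. They were taken by symbol from a count table of 32227 genes, and all 8 were among the 15083 genes with enough counts to be tested. The 12 libraries of bulk RNA sequencing fell into 4 groups of 3, all from C57BL/6J WT animals. CD34+ basophil progenitors (BaPs), CD34- CLEC12A-high CD9-low pre-basophils, which the titles call immature basophils, and CLEC12A-low CD9-high mature basophils came from BM, and CLEC12A-low CD9-high mature basophils also came from the spleen. Each library held sorted basophils pooled from several animals of a single experiment, whose age the sources used here do not give. The spread between replicates is therefore the spread between pools, and p-values set group differences against it. In the main fit that spread was estimated over all 4 groups together, also for comparisons of 2 groups.

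Granulocytes mature in the BM and then enter the blood. The chemokine receptor CXCR4 binds CXCL12 made by stromal cells and keeps the cells in place, whereas signalling through CXCR2 and through receptors for sphingosine 1-phosphate, a lipid that is abundant in blood, favours exit. The CC chemokine receptors draw cells into inflamed tissue, and PSGL-1, the product of Selplg, is the ligand by which leukocytes roll on selectins of the vessel wall. Receptors of these families are regulated at the cell surface as well as at the RNA level, and only RNA was measured here.

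Levels are given as CPM, read counts set to a common library total after scaling by the trimmed mean of M values, and a gene was called where the edgeR quasi-likelihood test gave a Benjamini-Hochberg adjusted p under 0.05 over all tested genes. Library totals ran from 3596108 to 8151030 counts, and a member had between 7 counts (Ccr3 in BaP replicate 1) and 4817 counts (Selplg in a spleen library). Clec12a lay between 129 and 327 CPM in the BaP and pre-basophil libraries and between 10.9 and 39.1 CPM in mature basophils, and Cd34 had 21.0 to 35.6 CPM in BaPs and 5.51 to 12.4 CPM elsewhere. Cd9 was at 188 to 244 CPM in the BaP, 400.2 to 453 CPM in the pre-basophil, 539 to 631 CPM in the BM mature and 474 to 595 CPM in the spleen libraries, called lower in pre-basophils than in BM mature basophils (edgeR adjusted p = 0.0171) and not called between pre-basophils and spleen mature basophils (0.0935). Kit had 7.07 to 31.8 CPM in BaPs and at most 3.35 CPM elsewhere. The basophil protease gene Mcpt8 had at least 553 CPM in every library.

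BaP replicate 3 stood apart from the other BaP libraries. The summed level of 9 basophil marker genes was 25061 CPM in it, against 67686 and 62678 CPM in BaP replicates 1 and 2. Its sum over 7 erythroid marker genes was 2403 CPM against 8.84 and 11.3 CPM, and its sum over 9 T and NK cell marker genes was 1094 CPM against 445 and 341 CPM. The NK cell receptor gene Ncr1 had 974 counts in it and 0 and 2 counts in the other BaP libraries, and the T cell gene Cd3e had 322 counts against 0 and 1. Its monocyte marker sum was 290 CPM against 141 and 153 CPM. Among the 8 genes, this library was 5.23-fold above the mean of the other BaP libraries for Ccr2, 4.95-fold for Ccr3 and 2.56-fold for S1pr1, and at 0.506 of it for Ccr1. The other 4 members were between 0.789 and 1.24 of that mean. Members' fold changes that involve BaPs are therefore also given without this library, and the part of other cell types in them was not tested.

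**Figure D1:**
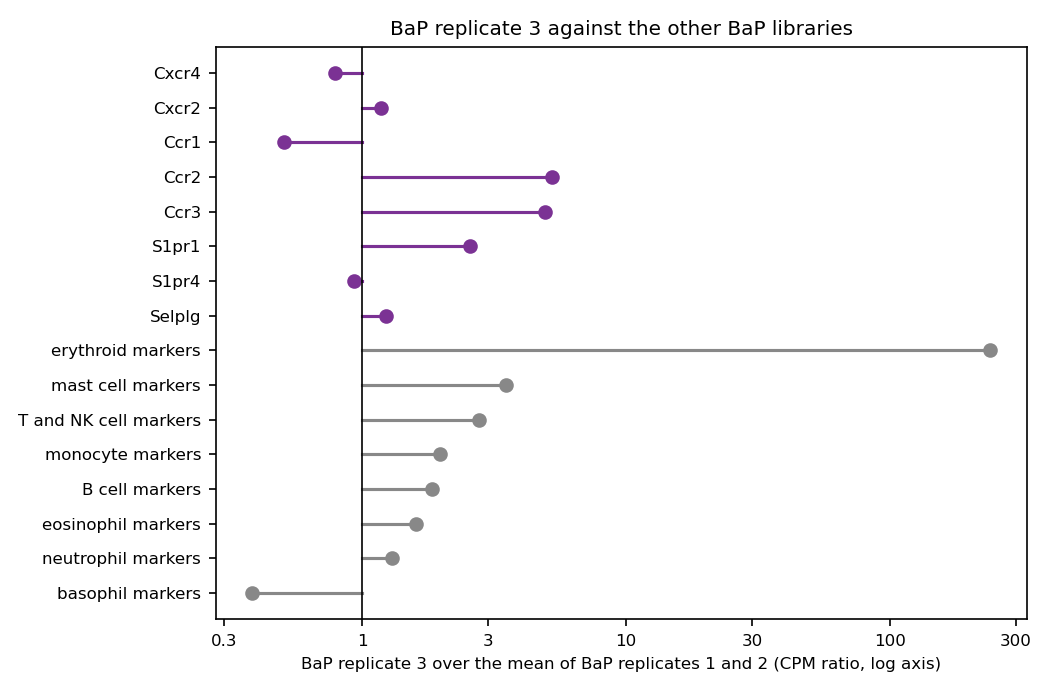
Ratio of BaP replicate 3 to the mean of BaP replicates 1 and 2 (CPM, log axis) for the 8 receptor genes (purple) and for summed cell type markers (grey). Ccr2 and Ccr3 lie near 5 together with T and NK cell, mast cell and monocyte markers above 1, whereas basophil markers and Ccr1 lie below 1.

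Of the 8 genes, 7 differed among the 4 groups, and the step from pre-basophil to mature basophil in BM changed 5 of them. Between BaPs and pre-basophils 4 members were called, all lower in BaPs (Cxcr2, Ccr1, S1pr4 and Selplg), where 7.08% of all tested genes were called and 4.29% were called lower. At the step from pre-basophil to BM mature basophil 5 were called, at a background of 27.3%. Cxcr4 was higher in pre-basophils, as were 16.3% of all genes, and Cxcr2, Ccr2, Ccr3 and Selplg were lower, as were 11% of all genes. Between mature basophils of spleen and BM none of the 8 was called by edgeR, DESeq2 or limma-voom, with 1 of them (Ccr3) at an unadjusted p under 0.05 in edgeR, at a background of 7.83%. The test over the 4 groups called 7 of 8, all but S1pr1, where 57.8% of all genes were called. The libraries of the compared groups did not overlap for 4, 6 and 4 of the 8 genes in these 3 comparisons, beside 25.1%, 47% and 33.7% of all tested genes.

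These counts depended on single libraries. Without BaP replicate 3 they were 5, 5 and 2 for the 3 comparisons and 8 for the 4-group test, at backgrounds of 12.4%, 35.7%, 18% and 65.8%. Without pre-basophil replicate 2 or 3 the count between BaPs and pre-basophils was 2. Over all genes the calls fell there as well, from 1068 to 390 and 382. Without pre-basophil replicate 1 or 3, or without BM mature replicate 2 or 3, the count at the step to BM mature basophils was 3. In these fits the calls over all genes fell from 4112 to 2831, 3162, 3173 and 3052.

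**Figure D2:**
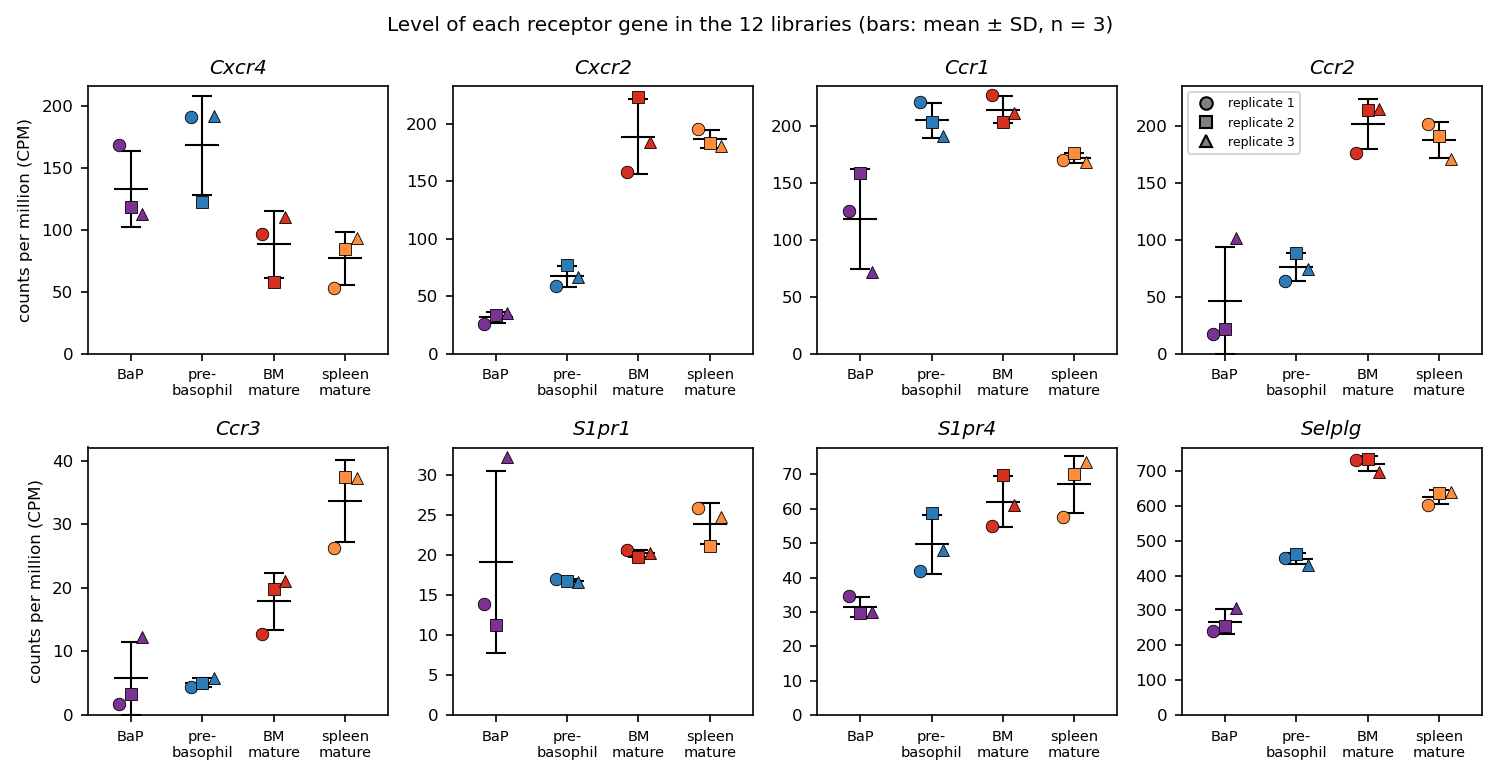
CPM of the 8 receptor genes in the 12 libraries. Each symbol is a library (circle, square and triangle for replicates 1, 2 and 3) and the bars give mean ± SD of 3 libraries, cut off at 0. Cxcr4 is higher in the marrow precursors than in mature basophils, Cxcr2 and Selplg climb from BaPs to mature basophils, and BaP replicate 3 (triangle) lies above the other BaP libraries for Ccr2, Ccr3 and S1pr1.

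Cxcr4, the receptor that retains leukocytes in the marrow, lies on chromosome 1 (GRCm38, 128588199 to 128592293, minus strand; ENSMUSG00000045382.6 in GENCODE M21). It had 168, 118 and 113 CPM in the BaP libraries, 191, 122 and 192 in the pre-basophil libraries, 96.7, 57.6 and 110 in the BM mature libraries and 52.6, 84.2 and 93.6 in the spleen mature libraries. Every precursor library lay above every mature library, and the BaP and pre-basophil libraries overlapped, as did those of the mature groups. The fall from pre-basophils to BM mature basophils was 1.91-fold (log2 fold change 0.93 ± 0.27 SE, pre-basophil over mature, edgeR adjusted p = 0.0188). It held in 19 of 22 alternative fits, with adjusted p from 3.98e-08 to 0.0834. The call was lost when pre-basophil replicate 1 or 3 (0.0775 and 0.0708) or BM mature replicate 2 (0.0834) was left out. With the replicate number in the edgeR model the log2 value was 0.94, with adjusted p = 0.0112. Against spleen mature basophils the level in pre-basophils was 2.19-fold higher (1.13 ± 0.27 SE, adjusted p = 0.00355), a call that held in all 22 alternatives. BaPs were 1.73-fold above spleen mature basophils (adjusted p = 0.0216, lost without BaP replicate 1 or spleen mature replicate 1, range 3.39e-06 to 0.1, and 0.00477 without BaP replicate 3 at log2 0.91). Against BM mature basophils the BaP value was higher by 0.59 on the log2 scale (± 0.27 SE, adjusted p = 0.0863), not called, and without BaP replicate 3 by 0.71, with adjusted p = 0.0284. BaPs and pre-basophils differed by -0.34 ± 0.26 (SE) and spleen and BM mature basophils by -0.20 ± 0.27 (SE), with adjusted p of 0.483 and 0.69. The first of these was -0.23 without BaP replicate 3 (adjusted p = 0.611).

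Cxcr2, the receptor for CXCL1 and CXCL2 that favours granulocyte exit, lies on the same chromosome (74153989 to 74161246, plus strand; ENSMUSG00000026180.8). Its level was 26.0, 33.2 and 34.9 CPM in the BaP libraries, 58.4, 76.9 and 66.4 in the pre-basophil libraries, 158, 223 and 184 in the BM mature libraries and 196, 183 and 181 in the spleen mature libraries. No library of an earlier stage reached the level of a later one within the marrow. BaPs were 2.13-fold below pre-basophils (log2 -1.09 ± 0.16 SE, edgeR adjusted p = 0.00135) and pre-basophils 2.80-fold below BM mature basophils (-1.49 ± 0.15 SE, adjusted p = 1.38e-05). Over both steps BaPs were 5.97-fold below BM mature basophils (-2.58 ± 0.16 SE, adjusted p = 7.65e-08). All of these calls held in all 22 alternatives. The values that involve BaPs were -1.17 (adjusted p = 0.000169) and -2.66 (adjusted p = 5.09e-10) without BaP replicate 3. The BM and spleen mature groups overlapped and differed by -0.01 ± 0.15 (SE), with adjusted p = 0.969. Summed neutrophil markers were at 1902 to 2554 CPM in the BaP libraries and 920 to 2201 CPM in the pre-basophil libraries. They were at 106 to 149 CPM in BM mature and 66.7 to 74.8 CPM in spleen mature basophils. Mpo alone had 562 to 1792 CPM in BaPs and 22.3 to 61.1 CPM in BM mature basophils. Of the 11 markers, 9 were called higher in pre-basophils than in BM mature basophils, beside 16.3% of all genes. Csf3r had 1.46 to 3.20 CPM in pre-basophils, 2.25 to 3.37 in BM mature and 2.64 to 3.32 in spleen mature basophils. Ly6g had 0 to 2 counts in every mature library. The part of neutrophil RNA in the Cxcr2 values was not tested.

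The ratio of Cxcr4 to Cxcr2 counts inside each library needs no scaling. A change in either gene moves it, so it does not show the course of each. From BaPs to pre-basophils Cxcr2 rose and Cxcr4 was not called. There were 6.46, 3.55 and 3.24 Cxcr4 counts per Cxcr2 count in BaPs and 3.27, 1.59 and 2.89 in pre-basophils. In mature basophils the ratio was 0.612, 0.258 and 0.598 in BM and 0.269, 0.459 and 0.518 in spleen. All 6 precursor libraries lay above 1 and all 6 mature libraries below 1. The ratio is given as a description, without a test.

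**Figure D3:**
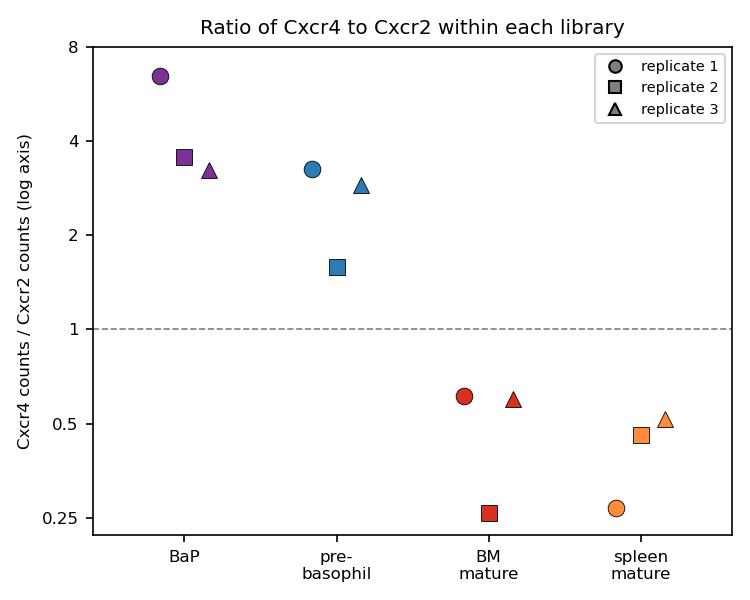
Ratio of Cxcr4 to Cxcr2 counts (log axis) in each of the 12 libraries by group, with a dashed line at 1. BaP and pre-basophil libraries lie between 1.59 and 6.46 and the mature libraries between 0.258 and 0.612.

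Promoter sequences were looked up for the members, and RefSeq entries (GRCm38.p6) were matched for 6 of 8, the genes Cxcr4, Cxcr2, Ccr1, Ccr2, Ccr3 and S1pr4. The 250 bases before the annotated start site are shown for Cxcr4 and Cxcr2, called in opposite directions between pre-basophils and BM mature basophils. They are also shown for Ccr3, the member with the lowest level in precursors. Capitals mark matches to the letters GATAA, TTNNGNAA and TGTGGT on either strand, short forms of the motifs of GATA, C/EBP and RUNX factors.
Cxcr4 (chr1:128592300-128592549, minus strand): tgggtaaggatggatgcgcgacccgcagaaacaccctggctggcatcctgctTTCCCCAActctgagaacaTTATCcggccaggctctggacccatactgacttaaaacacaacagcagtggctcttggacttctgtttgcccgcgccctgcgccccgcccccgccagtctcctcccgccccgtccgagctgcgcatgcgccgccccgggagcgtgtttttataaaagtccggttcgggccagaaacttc
Cxcr2 (chr1:74153744-74153993, plus strand): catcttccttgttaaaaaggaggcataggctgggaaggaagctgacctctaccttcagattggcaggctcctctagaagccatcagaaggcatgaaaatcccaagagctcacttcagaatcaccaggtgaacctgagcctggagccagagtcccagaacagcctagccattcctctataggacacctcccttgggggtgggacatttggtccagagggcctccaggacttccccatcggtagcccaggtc
Ccr3 (chr9:124021721-124021970, plus strand): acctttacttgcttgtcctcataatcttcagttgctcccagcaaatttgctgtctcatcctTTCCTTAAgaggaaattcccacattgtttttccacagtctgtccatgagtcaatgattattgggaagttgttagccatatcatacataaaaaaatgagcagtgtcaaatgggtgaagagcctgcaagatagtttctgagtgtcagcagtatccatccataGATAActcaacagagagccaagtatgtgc
The Cxcr4 window held GATAA beginning 179 bases before the start site and TTNNGNAA beginning 198 bases before it, both on the opposite strand. The Ccr3 window held TTNNGNAA at 189 bases and GATAA at 29 bases before the start, and these matches overlapped no other. None of the 3 letter patterns was in the Cxcr2 window. Among 32851 promoter windows of the same length, 22.6% held GATAA, 36.8% TTNNGNAA and 14% TGTGGT, so single matches are common and are given as a description.

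Ccr1, Ccr3 and Ccr2 encode receptors for inflammatory chemokines and lie in 1 cluster on chromosome 9. Ccr1 spans 123962124 to 123968692 (minus strand, ENSMUSG00000025804.5), Ccr3 124021972 to 124031689 (plus strand, ENSMUSG00000035448.9) and Ccr2 124101950 to 124113557 (plus strand, ENSMUSG00000049103.14). Over the 12 libraries the log2 CPM of Ccr2 and Ccr3 had Pearson's r = 0.908 (0.909 without BaP replicate 3), that of Ccr1 and Ccr2 0.313 (0.612) and that of Ccr1 and Ccr3 0.121 (0.304), given as a description since the libraries share 4 groups. Both Ccr2 and Ccr3 were called lower in pre-basophils than in BM mature basophils, and Ccr1 was not called at that step.

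Ccr1, a receptor for CCL3 and CCL5, had 125, 159 and 71.8 CPM in the BaP libraries, 222, 204 and 191 in the pre-basophil libraries, 228, 204 and 212 in the BM mature libraries and 171, 177 and 169 in the spleen mature libraries. All BaP libraries lay below all others. The difference between BaPs and pre-basophils was 1.74-fold (log2 -0.80 ± 0.20 SE, edgeR adjusted p = 0.0322) and shrank to -0.52 without BaP replicate 3, where adjusted p was 0.00611. The call was lost when any 1 pre-basophil library or BM mature replicate 1 was left out. It was also lost when only the 2 groups compared were fitted, with adjusted p up to 0.122 over all alternatives. Pre-basophils and BM mature basophils overlapped and differed by -0.06 ± 0.20 (SE), with adjusted p = 0.85. Every spleen library was below every BM mature library by a small margin (1.25-fold, -0.32 ± 0.20 SE, adjusted p = 0.354). That difference was called without BaP replicate 3, at the same log2 value of -0.32 with an SE of 0.10 and adjusted p = 0.0337.

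Ccr2, the receptor for CCL2, had 16.7, 21.9 and 101.1 CPM in the BaP libraries, 64.0, 88.6 and 74.5 in the pre-basophil libraries, 176, 214 and 215 in the BM mature libraries and 202, 191 and 171 in the spleen mature libraries. The BaP libraries other than replicate 3 were below every other library, and replicate 3 was above every pre-basophil library. With all libraries BaPs and pre-basophils differed by -0.65 ± 0.46 (SE, edgeR adjusted p = 0.44), and without BaP replicate 3 by -1.96, with adjusted p = 1.42e-06. Pre-basophils were 2.66-fold below BM mature basophils (-1.41 ± 0.46 SE, adjusted p = 0.0331). This call was lost when any 1 of the 6 libraries compared was left out or when libraries were scaled by size alone, with adjusted p up to 0.114. Without BaP replicate 3 the same log2 value of -1.41 had an SE of 0.13 and an adjusted p of 1.22e-07. The classical monocyte gene Ly6c2 had 1840 counts in BaP replicate 3 and 16 and 21 in the other BaP libraries, Fcgr1 was at 0 counts in every pre-basophil and mature library, and summed monocyte markers ranged from 157 to 184 CPM among pre-basophil and from 183 to 199 CPM among BM mature libraries.

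Ccr3, the eotaxin receptor, is also a surface marker of eosinophils. It had 1.67, 3.30 and 12.3 CPM in the BaP libraries (7, 14 and 127 counts), 4.47, 5.11 and 5.76 in the pre-basophil libraries, 12.7, 19.8 and 21.2 in the BM mature libraries and 26.2, 37.5 and 37.3 in the spleen mature libraries. Mature libraries lay above all precursor libraries, and spleen libraries above BM mature ones. Pre-basophils were 3.48-fold below BM mature basophils (-1.80 ± 0.48 SE on the log2 scale, edgeR adjusted p = 0.0128, lost without BM mature replicate 3 at 0.0503) and 6.49-fold below spleen mature basophils (-2.70 ± 0.47 SE, adjusted p = 0.000407). Spleen mature basophils were 1.86-fold above BM mature basophils (0.90 ± 0.41 SE, adjusted p = 0.196). That difference was called in 4 of 22 alternatives, among them the fit without BaP replicate 3 (0.89, adjusted p = 0.00497), and adjusted p ranged from 0.00012 to 0.461. Between BaPs and pre-basophils its sign turned with that library, from 0.33 ± 0.50 (SE) with it to -1.05 without it, and neither value was called (adjusted p = 0.758 and 0.0902). Of 8 eosinophil markers, 6 were tested. Siglecf was called lower in pre-basophils (19.96 to 24.3 CPM) than in BM mature basophils (45.8 to 53.6 CPM), with 55.8 to 62.3 CPM in spleen (log2 -1.21 for the first pair, adjusted p = 5.75e-05), and the other 5 were not called at that step. None was called between the mature groups. The granule gene Epx had 1, 0 and 0 counts in the spleen libraries. Summed eosinophil markers ranged from 296 to 313 CPM among pre-basophil, 352 to 373 CPM among BM mature and 324 to 379 CPM among spleen mature libraries. Most of each sum was Alox15, at 245 to 255, 281 to 309 and 253 to 313 CPM in these groups. Prg2 had 26.0 to 28.8, 4.68 to 24.3 and 1.92 to 3.30 CPM. The part of eosinophil RNA in the Ccr3 values was not tested.

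S1pr1 and S1pr4 encode receptors for sphingosine 1-phosphate, S1PR1 being the one by which lymphocytes leave tissue. S1pr1 (chromosome 3, 115710433 to 115715072, minus strand; ENSMUSG00000045092.8) had 13.9, 11.3 and 32.2 CPM in the BaP libraries, 17.1, 16.8 and 16.6 in the pre-basophil libraries, 20.7, 19.8 and 20.2 in the BM mature libraries and 25.9, 21.1 and 24.8 in the spleen mature libraries. Outside BaP replicate 3 the groups followed each other without overlap. None of the 6 comparisons was called with all libraries, the lowest edgeR adjusted p being 0.164 for pre-basophils against spleen mature basophils (-0.51 ± 0.29 SE). Without BaP replicate 3 this value was -0.51 with adjusted p = 0.00671, BaPs were below BM mature basophils by -0.67 (adjusted p = 0.00468) and below spleen mature basophils by -0.92 (adjusted p = 0.000191). Against pre-basophils the sign in BaPs turned, from 0.24 ± 0.29 (SE) with that library to -0.41 without it (adjusted p = 0.686 and 0.158).

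S1pr4 (chromosome 10, 81497747 to 81500132, minus strand; ENSMUSG00000044199.6) had 34.6, 29.7 and 29.9 CPM in the BaP libraries, 41.9, 58.9 and 48.1 in the pre-basophil libraries, 55.1, 69.9 and 61.2 in the BM mature libraries and 57.6, 70.1 and 73.6 in the spleen mature libraries. BaPs lay below all other libraries, and BaP replicate 3 was inside the range of the other BaP libraries. BaPs were 1.58-fold below pre-basophils (log2 -0.66 ± 0.15 SE, edgeR adjusted p = 0.0213, highest 0.11) and 1.98-fold below BM mature basophils (-0.99 ± 0.15 SE, adjusted p = 0.000157, called in all 22 alternatives). The first call was lost without pre-basophil replicate 2 or 3, when libraries were scaled by size alone and when only the 2 groups compared were fitted. The log2 values were -0.62 (adjusted p = 0.0208) and -0.94 (adjusted p = 0.000123) without BaP replicate 3. Pre-basophils and BM mature basophils overlapped (-0.32 ± 0.15 SE, adjusted p = 0.135), as did the mature groups (0.11 ± 0.15 SE, adjusted p = 0.686).

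Selplg (chromosome 5, 113818536 to 113832644, minus strand; ENSMUSG00000048163.13) encodes PSGL-1. Its level was 242, 256 and 308 CPM in the BaP libraries, 450, 463 and 432 in the pre-basophil libraries, 733, 734 and 698 in the BM mature libraries and 603, 637 and 640 in the spleen mature libraries. No 2 groups overlapped, and the order was BaP, pre-basophil, spleen mature, BM mature. BaPs were 1.67-fold below pre-basophils (log2 -0.74 ± 0.11 SE, edgeR adjusted p = 0.00151) and pre-basophils 1.61-fold below BM mature basophils (-0.69 ± 0.11 SE, adjusted p = 0.000402), and both calls held in all 22 alternatives. The first was -0.84 without BaP replicate 3 (adjusted p = 1.92e-05). Spleen mature basophils were 1.15-fold below BM mature basophils, a difference that was not called (-0.20 ± 0.11 SE, adjusted p = 0.26).

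**Figure D4:**
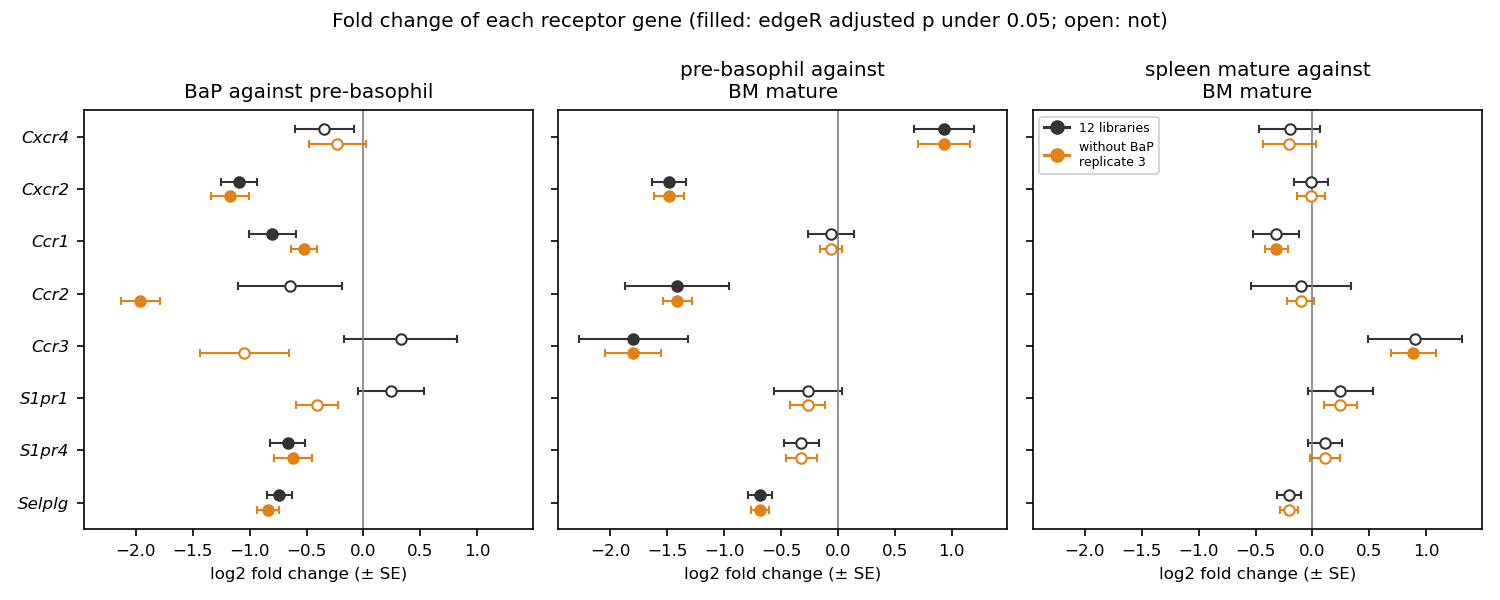
Log2 fold change ± SE of each receptor gene in 3 comparisons, first-named group over the second, with all 12 libraries (grey) and without BaP replicate 3 (orange). Filled points had an edgeR adjusted p under 0.05. Leaving out the library moved Ccr2, Ccr3 and S1pr1 to the left in the comparison of BaPs with pre-basophils and narrowed the errors of Ccr2 and Ccr3 in the others.

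Over the longer comparisons, 6 of 8 members were called between BaPs and BM mature basophils, all lower in BaPs, where 45% of all genes were called and 19.7% were called lower. There were 7 of 8 between BaPs and spleen mature basophils at a background of 54.5%, with 6 lower and Cxcr4 higher in BaPs beside 24.6% and 29.8% of all genes. There were 6 of 8 between pre-basophils and spleen mature basophils at 45.7%, with 5 lower and Cxcr4 higher in pre-basophils beside 20.5% and 25.2%. Without BaP replicate 3 each of these comparisons called all 8, at backgrounds of 51.3%, 61.6% and 54.4%. In each of the 3 the libraries did not overlap for 7 of 8 genes, beside 52%, 59.9% and 59.7% of all tested genes. The median log2 fold change of the 8 was -1.21 for BaPs against BM mature basophils, beside 0.05 over all tested genes (-1.23 beside -0.01 without BaP replicate 3), and -0.50 against 0.00 for pre-basophils against BM mature basophils. For spleen against BM mature basophils it was -0.06 beside 0.01. The comparisons share groups and are not independent of each other. In bulk RNA, fewer expressing cells in a population and less RNA per cell cannot be told apart.

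Per kilobase of merged exon, Selplg had the highest level of the 8 in mature basophils, at 169 ± 4.81 CPM per kb (SD, n = 3) in BM and 147 ± 4.82 in spleen. In BaPs the highest was Cxcr4 at 73.6 ± 16.9 CPM per kb beside Selplg at 62.8 ± 8.11, and the libraries of these overlapped. They did not overlap without BaP replicate 3, with 65.3 and 93.0 for Cxcr4 and 56.6 and 59.8 for Selplg. Cxcr4 ranked below Selplg in pre-basophils (93.1 ± 22.1, with overlapping libraries) and had rank 4 in BM mature basophils (48.7 ± 15.1), where Selplg, Ccr1 (75.7 ± 4.22) and Cxcr2 (61.8 ± 10.7) were above it, with Cxcr2 and Cxcr4 overlapping in their libraries. By group mean Ccr3 and S1pr1 were lowest in every group, at 10.3 ± 1.97 and 7.87 ± 0.827 CPM per kb in spleen mature basophils. In BaPs this rested on replicate 3. In BaP replicates 1 and 2 Ccr2 (2.47 and 3.24) was below S1pr1 (4.55 and 3.71). These ranks take reads as spread over the whole exon length, which was not tested. In CPM without that division Selplg was above Cxcr4 in every BaP library, with means of 268 and 133 CPM. Reads could be shared with other genes to a small extent only. Of the 50-base runs in the annotated transcripts, 6.68% for Cxcr2, 1.91% for Ccr2, 1.51% for Selplg and 1.24% for S1pr4 also occurred in transcripts of other genes, and none did for the other 4 members.

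Of 24 chemokine receptor genes, 12 had enough counts to be tested, 5 of them members. The test over the 4 groups called 10 of the 12, beside 57.8% of all tested genes. Ccrl2, an atypical receptor that binds chemerin, was the only chemokine receptor called between the mature groups with all libraries (4 were called without BaP replicate 3), at 173, 128 and 178 CPM in BM and 58.7, 84.5 and 72.4 CPM in spleen (log2 -1.15, spleen over BM, edgeR adjusted p = 0.00401). Ccr7, the lymph node homing receptor, was at 7.70 to 11.8 CPM in spleen and at most 1.87 CPM in pre-basophils and BM mature basophils, beside B cell markers that summed to 99.2 to 158 CPM in spleen and at most 66.7 CPM elsewhere. Cxcr3 had 253 counts in BaP replicate 3 and at most 13 in any other library. It had too few counts in the others to be tested.

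**Figure D5:**
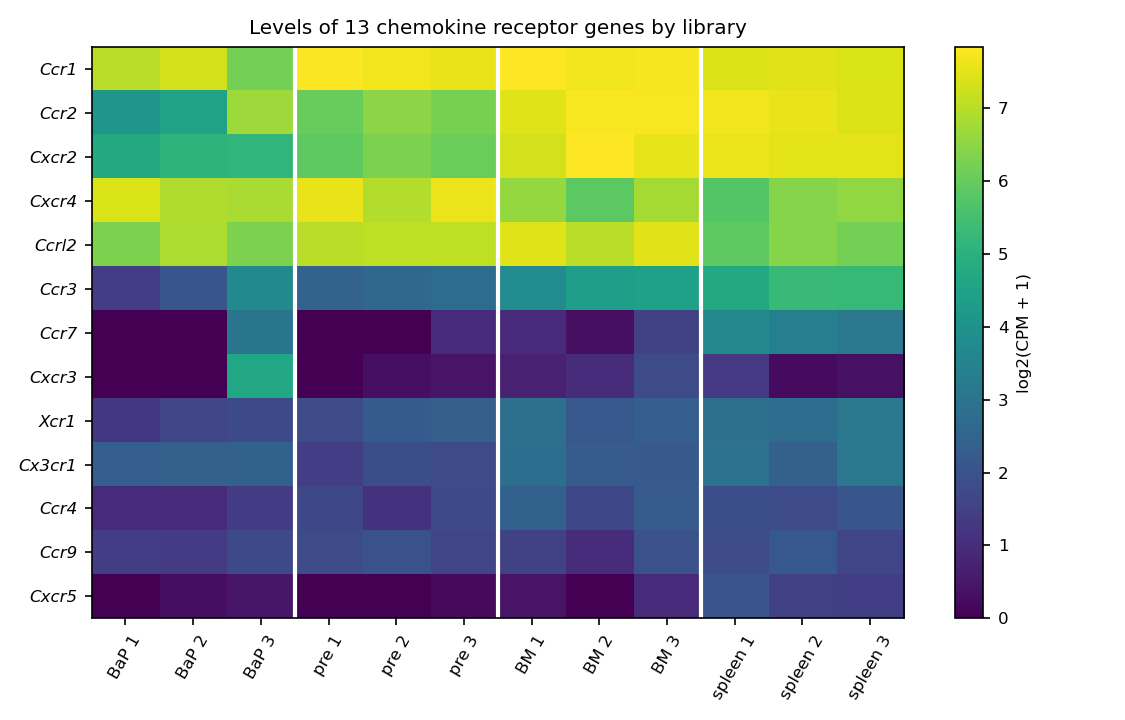
Log2(CPM + 1) of 13 of the chemokine receptor genes that reached a mean of 2 CPM in some group, by library. Ccr1, Ccr2, Cxcr2, Cxcr4 and Ccrl2 are the brightest rows, Cxcr3 is bright in BaP replicate 3 only, and Ccr7 is raised in the spleen libraries and BaP replicate 3.

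Of 17 genes for sphingosine 1-phosphate receptors and metabolism, 12 were tested and 5 differed among the 4 groups, beside 57.8% of all tested genes. Without BaP replicate 3 there were 6, beside 65.8%. Spns2, the transporter that carries the lipid out of cells, had 17.1 to 19.4 CPM among pre-basophil and 5.99 to 8.27 CPM among BM mature libraries (log2 1.35, edgeR adjusted p = 0.000988). Cd69, whose product pulls S1PR1 from the cell surface, was between 2924 and 3281 CPM in pre-basophils and between 1253 and 1520.5 CPM in spleen mature basophils, and was lower in spleen than in BM mature basophils (-1.34, adjusted p = 0.00274). The gene for the transcription factor KLF2, which drives S1pr1 in T cells, had 1750.3, 590.3 and 2195 CPM in the pre-basophil libraries. It had 2548, 719.6 and 2691 CPM in the BM mature libraries. Its replicates were farther apart than its groups, with replicate 2 lowest in both. Each BM mature library lay above the pre-basophil library of the same number. Sgpl1, the lyase that breaks the lipid down, was lower in BaPs than in pre-basophils (-0.50, adjusted p = 0.0489), a call lost without BaP replicate 3 (-0.48, adjusted p = 0.0644).

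Of 19 genes for selectin ligands and their glycosylation, 18 were tested, and 11 were called at the step from pre-basophil to BM mature basophil, with 5 higher and 6 lower in the precursor, beside 27.3% of all tested genes called, 16.3% higher and 11% lower. Gcnt1, the enzyme that makes the core-2 branch needed on PSGL-1, was lower in pre-basophils (log2 -0.93, edgeR adjusted p = 0.000445) and higher in spleen than in BM mature basophils (0.65, adjusted p = 0.0177). Cd24a, a P-selectin ligand of immature cells, fell with maturation, from between 135 and 159.8 CPM in BaPs to 7.96 to 9.17 CPM in BM mature basophils (4.15, BaP over mature, adjusted p = 2.41e-08, and 4.23 without BaP replicate 3). The fucosyltransferase gene Fut7, which completes the selectin-binding sugar, was not called in any comparison and lay between 32.1 and 65.3 CPM in all libraries.

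Of 29 genes that couple these receptors to G proteins or switch them off, 26 were tested, and 8 of the 9 called at the step from pre-basophil to BM mature basophil were lower in the precursor, beside 27.3% of all tested genes called and 11% lower. There were 17 called in the list without BaP replicate 3, beside 35.7% of all genes. Among the regulators of G protein signalling, Rgs1 and Rgs2 were lower in pre-basophils (log2 -0.81 and -1.14, edgeR adjusted p = 0.0126 and 0.0125) and lower in spleen than in BM mature basophils (-1.74 and -1.15, adjusted p = 0.00122 and 0.0364). Grk2, the kinase that starts receptor desensitisation, was higher in spleen (0.84, adjusted p = 0.0219), and Grk3 was higher in pre-basophils (0.82, adjusted p = 0.00553). Summed dissociation stress genes ranged from 47399 to 53811 CPM among pre-basophil, 100236 to 121363 CPM among BM mature and 120705 to 142064 CPM among spleen mature libraries, and their part in these values was not tested.

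A list of 9 genes covered proteases that shed surface proteins or cleave CXCL12, and 5 were called at the step from pre-basophil to BM mature basophil, beside 27.3% of all tested genes. Adam8, a membrane-bound sheddase, had 85.7 to 133 CPM among pre-basophil and 287 to 514 CPM among BM mature libraries (log2 -1.90, edgeR adjusted p = 5.23e-05). Dpp4, which inactivates CXCL12, was also lower in pre-basophils (-0.72, adjusted p = 0.00246). The granule protease genes Ctsg, Elane and Mmp8 were higher in them, Ctsg at 1191 to 1480.02 CPM against 75.6 to 140.03 CPM (3.46, adjusted p = 1.69e-05). Cxcl12 itself had at most 8 counts in any library and was not tested.

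The genes with the most similar course over the 12 libraries differed between the members. By Pearson's r of log2 CPM among 9635 genes, Tuba1a (0.94), Tmem230 (0.939) and Gm3226 (0.937) were nearest to Cxcr4, and Limd2 (0.993), Tmem71 (0.992) and Nxpe4 (0.992) to Cxcr2. Selplg was nearest to Itgam (0.994), the gene of the integrin CD11b, Ccr2 to Il7r (0.987), the interleukin-7 receptor, Ccr3 to Pik3cd (0.987), Ccr1 to Dtnb (0.978), S1pr4 to Septin9 (0.979) and S1pr1 to Skil (0.967). Among the members, Cxcr2 and Selplg had r = 0.97 and Cxcr2 and Cxcr4 r = -0.71. S1pr1 and Cxcr2 had r = 0.458 over 12 libraries and 0.895 over the 11 without BaP replicate 3. These values describe libraries that share 4 groups and are given without a test.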

How the data were processed

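RNA was measured in 12 libraries of sorted basophils, 3 in each of 4 groups taken from the sample titles. Per the study's methods, polyadenylated RNA was captured, amplified as whole transcriptome and sequenced, reads were trimmed with Cutadapt 3.4 and mapped with Bowtie2 2.4.2 to GRCm38 reference RNA, and the authors deposited raw counts per gene. The submitters' notes name GRCm39 instead. Coordinates here are from GENCODE M21 on GRCm38. Use of strand and treatment of multiply mapped reads are not given in the sources used here. PCR copies count as reads, so counting limits cover counting error only (3 counts for a count of 0, or 0.29 to 0.955 CPM).

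The deposited counts were filtered with filterByExpr, scaled by TMM (factors 0.844 to 1.3) and fitted with edgeR 4.0.16 in R 4.3.3 as 1 quasi-likelihood model over all 12 libraries, with 6 pairwise comparisons, a test over the 4 groups, and Benjamini-Hochberg adjustment over the tested genes. The SE is the absolute log2 fold change divided by the square root of F. The model was tested on simulated data. Alternatives were other scalings, no filter, DESeq2 1.42.0, limma-voom (limma 3.58.1), DEGES scaling as in the study, the 2 groups alone, adjustment over the 6 comparisons together, a replicate block and leaving out each library. One fit, the replicate block without BaP replicate 3, was added after seeing the data.

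Libraries of 1 group were compared by chi-square per degree of freedom (genes of 20 or more counts per pair), which gave 4.16 to 35, so none was counted as a copy. Same-numbered BM libraries deviated together (correlations 0.125 to 0.262), so their numbers were taken as pairs from the data. Same-numbered BM and spleen libraries did not all do so.

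Members and gene lists were chosen with earlier results of these data known. The text names the 8 members, of each list at most 4 called genes with the largest change and a mean of 10 CPM or more in the group where it was higher, and the nearest genes by correlation. Ccr7, Cxcr3, Cxcl12, Klf2, Fut7, Sgpl1, Dpp4, Elane, Mmp8 and the genes named as markers are outside this rule and were chosen for their role or after their values were seen. Some genes of the lists are not reported here.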

Additional observations from a re-analysis of the deposited data

How the results depend on the processing

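Of 1008 planned values of a member's log2 fold change, 921 kept direction and side of the threshold, 51 lost the call, 18 gained one and 18 turned sign; none of those that turned was called in the report. Leaving out 1 library gave 2 to 5 members called between BaPs and pre-basophils, 3 to 5 between pre-basophils and mature BM cells, 0 to 2 between the mature groups, 5 to 8 for BaPs against either mature group, 4 to 8 for pre-basophils against spleen and 7 to 8 over the 4 groups. The calls over all genes in these fits ran from 382 to 1831, 2831 to 5251 and 241 to 2653 in the first 3 comparisons. They ran from 5708 to 7549 and 7047 to 9065 for BaPs against BM and spleen, and from 5491 to 8010 for pre-basophils against spleen. Restricted to the groups compared, the counts were 2 for BaPs against pre-basophils and 2 for the mature groups, the latter also 1 without the filter and 3 with the block and without BaP replicate 3, a fit chosen after seeing the data. For BaPs against pre-basophils that fit gave -0.92 for Ccr3 and -0.40 for S1pr1, and leaving out 1 library gave -1.05 to 0.71 and -0.41 to 0.50. S1pr1 in BaPs against mature BM cells ranged from -0.67 to 0.24, with 0.44 by library size alone and 0.013 by DEGES, and against spleen had 0.065 by library size alone. Ccr1 at the step to mature BM cells had 0.16 by library size alone and 0.018 by DEGES. Between the mature groups Cxcr2 had 0.11 by library size alone, 0.0038 without the filter and -0.15 to 0.12 with 1 library left out, Cxcr4 -0.43 to 0.016, and Ccr2 0.027 by library size alone. The cause was not tested.

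With the replicate block the counts of members called were 4, 5, 0, 6, 7, 6 and 7, as in the report, and Cxcr2 between the mature groups had 0.0040. The pairing changed no call of a member. Same-numbered BM and spleen libraries had correlations of 0.000366 to 0.0899, and not all were above those of libraries with other numbers. For pre-basophils and spleen they all were, at 0.0719, 0.0268 and 0.0899.

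Over all genes, 1068 were called between BaPs and pre-basophils and 1181 between the mature groups. These counts were 2091 and 1796 without the filter, 1831 and 2653 without BaP replicate 3, 375 and 2340 with the 2 groups alone, 2152 and 2226 adjusted over the 6 comparisons, and 2060 and 3410 in the added fit. They fell to between 382 and 471 without any 1 pre-basophil library (lowest without replicate 3) and to between 241 and 757 without any 1 library of the mature groups (lowest without spleen mature replicate 3), and library size alone gave 1620 for the first. Scaling by library size alone moved the median of all genes by up to 0.43 and the share of calls that were higher from 39.4% to 79.6%, 59.8% to 82.5%, 40.4% to 60.6%, 56.3% to 82.9% and 54.7% to 73.7%, in the order of the comparisons in the report. Depth limits Ccr3 most, with 7 to 36 counts in the precursors outside BaP replicate 3.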
